A study of Mus musculus with 4 samples.

Results

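The retinoid genes described here are the 3 retinoic acid receptor genes Rara, Rarb and Rarg, the binding protein genes Crabp1 and Crabp2, the uptake gene Stra6, and the enzyme genes Aldh1a2, Dhrs3 and Cyp26a1. They were chosen by symbol for their place in retinoid signalling, with earlier results of these data known, and they are 9 of the 28250 genes listed in each expression table. All 9 passed the filter on low values described below. RNA-seq was compared between 2 libraries of solvent-treated TBV2 cells (group Solvent) and 2 libraries of TBV2 cells exposed to MS-275 at 5 µM (group MS-275), each after 24 h and numbered 1 and 2. TBV2 is a feeder-dependent mouse embryonic stem cell (ESC) line of the 129/SvP strain, and MS-275 (Entinostat) inhibits class I histone deacetylases. Cells of both groups were grown with LIF, the cytokine that keeps ESC undifferentiated, on feeder cells and gelatin. The labels give wild-type or transgenic status for neither group, and the titles name the control agent only as solvent. No source says whether the duplicates came from separate cultures, so p-values measure the spread between these libraries, which may be technical.

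Retinoic acid is made from vitamin A inside cells and acts in the nucleus. Retinol enters through the membrane receptor Stra6, is oxidized to retinal, and retinal is oxidized irreversibly to retinoic acid by retinaldehyde dehydrogenases such as Aldh1a2. Dhrs3 reduces retinal back to retinol, Cyp26a1 breaks retinoic acid down, and the cellular binding proteins Crabp1 and Crabp2 carry it, Crabp2 towards the nuclear receptors. The receptors Rara, Rarb and Rarg bind DNA with retinoid X receptors at repeated hexamers, recruit corepressor complexes that hold histone deacetylases when no ligand is bound, and exchange them for coactivators when it is. In ESC retinoic acid is a widely used inducer of differentiation, and Rarb, Cyp26a1, Stra6, Crabp2 and Dhrs3 are textbook targets of the pathway they serve.

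The binding letters of the receptors are shown first, because Rarb and Cyp26a1 are the classical genes that carry them next to their start. RefSeq windows from 250 bases before to 50 bases after a transcript start (GRCm38.p6) were found for 8 of the 9 genes. Crabp2 had no window and was not searched. The 17 windows found each matched exactly at 1 place on the mm9 sequence of their own chromosome, in the orientation of the gene. Matches on other chromosomes or in the other orientation were not looked for. The windows were searched on both strands for 2 hexamers in the same orientation, separated by 1, 2 or 5 bases. Each hexamer was AGGTCA, with G also allowed at its position 1 and T at its position 3. A repeat spaced by 5 bases was in 2 of these windows, at Rarb and at Cyp26a1, against 32 of 32851 windows of all genes (0.0974%). Repeats spaced by 1 base (0.222% of all windows) or by 2 bases (0.268%) were in none of the 17. The 100 bases just before the start follow in the direction of transcription, with the repeat in capitals. Aldh1a2, the gene with the largest change among the 9, is shown beside them, and its window held no such repeat.
Rarb, chr14:16575477-16575576, minus strand: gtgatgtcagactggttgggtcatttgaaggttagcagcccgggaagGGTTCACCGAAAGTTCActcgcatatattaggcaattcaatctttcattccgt
Cyp26a1, chr19:37697708-37697807, plus strand: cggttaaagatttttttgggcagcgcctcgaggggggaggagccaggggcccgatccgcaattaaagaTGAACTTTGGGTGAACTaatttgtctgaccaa
Aldh1a2, chr9:71215689-71215788, plus strand: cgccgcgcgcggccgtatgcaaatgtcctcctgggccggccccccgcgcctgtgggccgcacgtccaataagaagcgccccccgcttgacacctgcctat
The Rarb repeat lies from 53 to 37 bases before the start, on the strand of transcription. The Cyp26a1 repeat lies from 32 to 16 bases before the start and reads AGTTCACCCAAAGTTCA on the opposite strand. The Rarb repeat, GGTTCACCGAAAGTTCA, was in 1 of the 32851 windows, and that of Cyp26a1 in 2. The 100 bases of Aldh1a2 held 13 CG pairs and were 71% G or C, against 4 pairs and 46% in Rarb and 5 pairs and 51% in Cyp26a1. These are matches of letters, and receptor binding was not measured.

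Each library has a normalized expression value per gene, a signal made by the authors and not a read count. Genes reaching 0.001 in 2 or more libraries were kept, 20336 in all. MS-275 was set against Solvent on the scale log2(value + 0.005), which understates the change of genes near 0.005. The log2 fold changes were tested with limma, with p adjusted over all of these genes by the Benjamini-Hochberg method and a threshold of 0.05. The headers of the deposited tables call replicate 1 of both conditions old, so results of a fit blocked by replicate stand beside those of the fit of group means. The same groups were also compared by the number of distinct alignment positions on the exons of each gene, with limma-voom and the same block. A fit with the block leaves 1 residual degree of freedom per gene. Its standard errors and p-values therefore rest mostly on spread that limma pools over all genes, and little on the gene's own replicates. The median gene tested was 0.20 higher with MS-275 on the log2 scale, and -0.01 after median-ratio scaling or -0.02 after quantile normalization, so changes below are best read against that shift. The libraries held 9122347 to 10973569 distinct positions. In the alignments of replicate 1 of both groups 53.2% and 54.4% repeated a position, and in those of replicate 2 none did. The replicate numbers of values and alignments matched best when crossed. For 9 of the 9 retinoid genes the folds of the pairs by values and by alignments lay closer once the replicate numbers of one were exchanged, as for 80.2% of 14147 genes. Values and positions are given below with the numbers they were deposited under, so replicate 1 of the values goes with replicate 2 of the positions. An exchange in both groups leaves the group and block comparisons as they are.

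Of the 9 genes 5 were higher and 1 was lower in both MS-275 libraries than in both Solvent libraries. Over all genes tested 32.3% were higher and 12.0% were lower without overlap. In the fit of group means 0 of the 9 passed the adjusted threshold in either direction, where 0.00492% of all genes passed as higher and 0% as lower. At an unadjusted p under 0.05 Aldh1a2 and Crabp2 passed as higher, where 14.6% of all genes did, and none of the 9 as lower, where 2.77% did. With the replicate block 4 of the 9 passed as higher (Aldh1a2, Crabp2, Crabp1 and Rarb), where 21.0% of all genes did, and Rara passed as lower, where 6.46% of all genes did. By distinct positions with the block 5 passed as higher, the same 4 and Stra6, where 28.5% of all genes did, and Rara again as lower, where 13.1% did. By positions without the block 3 passed as higher (Aldh1a2, Crabp2 and Rarb), where 14.5% of all genes did, and 0 as lower, where 4.92% did. By a fold of at least 2 in both replicate pairs, with no test, the same 3 were higher, where 11.5% of all 28250 genes were, and 0 lower, where 2.04% were. The median log2 fold change of the 9 was 0.77.

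**Figure D1:**
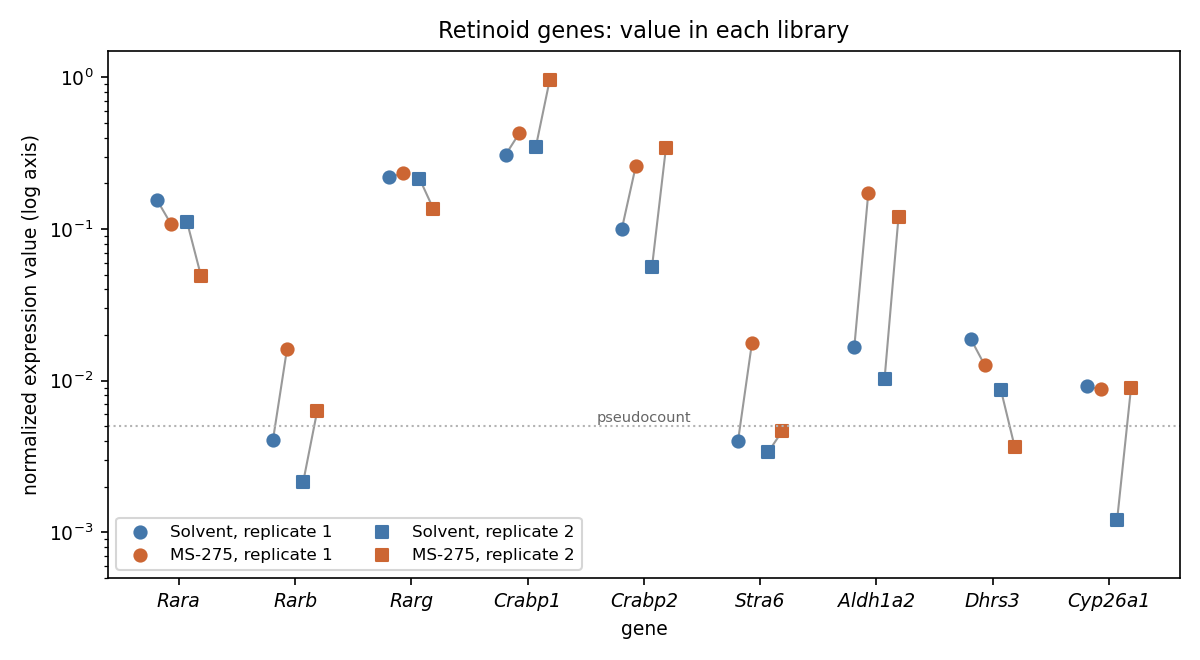
Normalized expression value (log axis) of each retinoid gene in the 4 libraries, with Solvent in blue, MS-275 in orange, replicate 1 as circles, replicate 2 as squares and lines joining the libraries of one replicate number. Aldh1a2 has the steepest lines in both pairs, from 0.0167 to 0.173 and from 0.0103 to 0.120, while Rara slopes down in both.

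Of the receptors, Rarb was higher with MS-275, Rara was lower, and Rarg did not pass in any fit. Rara, the receptor gene whose product is found in most tissues (Entrez 19401, chromosome 11 of mm9 from 98789132 to 98836256), had values of 0.156 and 0.112 in Solvent replicates 1 and 2 and of 0.109 and 0.0494 in MS-275. Both Solvent libraries lay above both MS-275 libraries, with a narrow gap between 0.112 and 0.109. The log2 fold change was -0.81 (standard error 0.475, adjusted p = 0.458 from limma), and with the replicate block its standard error was 0.241 (adjusted p = 0.0211). The exons of Rara held 573 and 442 distinct positions in Solvent and 263 and 343 in MS-275, a log2 fold change of -0.67 (adjusted p = 0.00237 from limma-voom with the block). Rara fell in every fit with the block that was run, at adjusted p from 0.00118 to 0.0336.

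Rarb (Entrez 218772, chromosome 14 of mm9 from 17263356 to 17651381) is the classical direct target of the receptors and was near the lower end of what the libraries detected. Values were 0.00408 and 0.00215 in Solvent replicates 1 and 2, and 0.0161 and 0.00630 in MS-275. The MS-275 libraries were the higher ones in both pairs, by 3.94-fold and 2.93-fold of the deposited values. On the log2 scale the change was 0.94 (standard error 0.434, adjusted p = 0.308 from limma), and with the block its standard error was 0.276 (adjusted p = 0.0191). With quantile normalization and the block the change was 0.45 and no longer passed (adjusted p = 0.247). The exons held 14 and 10 distinct positions in Solvent and 31 and 48 in MS-275, a log2 fold change of 1.73 (adjusted p = 0.00323 from limma-voom with the block).

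Most alignments in the Rarb gene lay outside its annotated exons. Its introns held 192 and 120 distinct positions in Solvent and 192 and 157 in MS-275, so the share of the gene's positions on exons was 6.80% and 7.69% in Solvent and 13.9% and 23.4% in MS-275. Counted over the whole gene with its introns, the log2 ratio of positions, scaled to 1000000 per library, was 0.43, against 1.76 on the exons. The exon block at the start of transcript Rarb-202, which begins 4 bases from the RefSeq start of the sequence above, held 2 and 1 positions in Solvent and 5 and 1 in MS-275. The last exon block held 11 and 7 in Solvent and 17 and 27 in MS-275. At these counts a choice between transcript starts was not detectable.

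Rarg, the receptor gene with the highest level of the 3 in these cells (Entrez 19411, chromosome 15 of mm9 from 102065369 to 102087948), had values of 0.219 and 0.215 in Solvent and of 0.233 and 0.136 in MS-275. The groups overlapped, since MS-275 replicate 1 was the highest of the 4 and MS-275 replicate 2 the lowest. The change of -0.28 on the log2 scale did not pass (standard error 0.403, adjusted p = 0.838 from limma), and with the block the standard error was 0.236 (adjusted p = 0.408). The exons held 756 and 581 distinct positions in Solvent and 468 and 684 in MS-275 (log2 fold change -0.15, adjusted p = 0.426 from limma-voom with the block). Within a library the ratio of the Rara value to the Rarb value was 38.4 and 52.0 in Solvent and 6.76 and 7.83 in MS-275, with no overlap. This ratio does not depend on a scaling factor of the library, but it compares values of 2 genes and not their numbers of transcripts. Rara and Rarb each lay apart between the groups, in opposite directions, so the ratio could not overlap.

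Both binding protein genes were higher with MS-275, Crabp2 by more than Crabp1. Crabp2, which passes retinoic acid to the receptors (Entrez 12904, chromosome 3 of mm9 from 87752588 to 87757298), had values of 0.0999 and 0.0563 in Solvent and of 0.260 and 0.345 in MS-275. The lower MS-275 library was 2.60-fold above the Solvent library of its pair and the other 6.12-fold. The log2 fold change was 1.92 (standard error 0.414, adjusted p = 0.0655 from limma), and with the block the standard error was 0.264 (adjusted p = 8.14e-05). The exons held 90 distinct positions in each Solvent library and 257 and 262 in MS-275, a log2 fold change of 1.60 (adjusted p = 1.69e-05 from limma-voom with the block). Crabp2 also passed by positions without the block (adjusted p = 0.00914 from limma-voom).

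Crabp1, the other cellular retinoic acid binding protein (Entrez 12903, chromosome 9 of mm9 from 54612555 to 54620917), had values of 0.309 and 0.347 in Solvent and of 0.430 and 0.962 in MS-275. All of the MS-275 values lay above the Solvent values, and the spread between the MS-275 libraries was wider than the gap between the groups. A log2 fold change of 0.97 resulted (standard error 0.533, adjusted p = 0.418 from limma), and with the block the standard error was 0.273 (adjusted p = 0.0153). The exons held 245 and 238 distinct positions in Solvent and 339 and 361 in MS-275, a log2 fold change of 0.60 (adjusted p = 0.00843 from limma-voom with the block). With every alignment counted, replicate 1 of the alignments held 655 in Solvent and 1568 in MS-275, of which 62.6% and 78.4% repeated a position. By the folds this pair goes with the values 0.347 and 0.962. Replicate 2 of the alignments repeated no position on any gene, so repeats could be found in replicate 1 only. Counting every alignment gave a log2 ratio of 1.09 for Crabp1, against 0.59 by distinct positions. Only replicate 1 was counted differently between these measures. The ratio of the Crabp1 to the Crabp2 value was 3.09 and 6.15 in Solvent and 1.66 and 2.79 in MS-275, with no overlap between the groups.

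Stra6, the membrane receptor that takes up retinol from its carrier in blood (Entrez 20897, chromosome 9 of mm9 from 57911595 to 58001803), had values of 0.00402 and 0.00339 in Solvent and of 0.0178 and 0.00464 in MS-275. Both MS-275 libraries were above both Solvent libraries, replicate 1 by far and replicate 2 by little. Their log2 fold change was 0.77 (standard error 0.477, adjusted p = 0.488 from limma) and did not pass with the block either (standard error 0.304, adjusted p = 0.0716). By distinct positions the exons held 20 and 11 in Solvent and 26 and 51 in MS-275, a log2 fold change of 1.33 that passed with the block (adjusted p = 0.0182 from limma-voom). The highest value and the most positions carry different replicate numbers, but by the exchange described above they belong to the same library. Genes Ccdc33 and Gm16131 overlap the Stra6 gene in the annotation, but shared 0 exon bases with it.

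**Figure D2:**
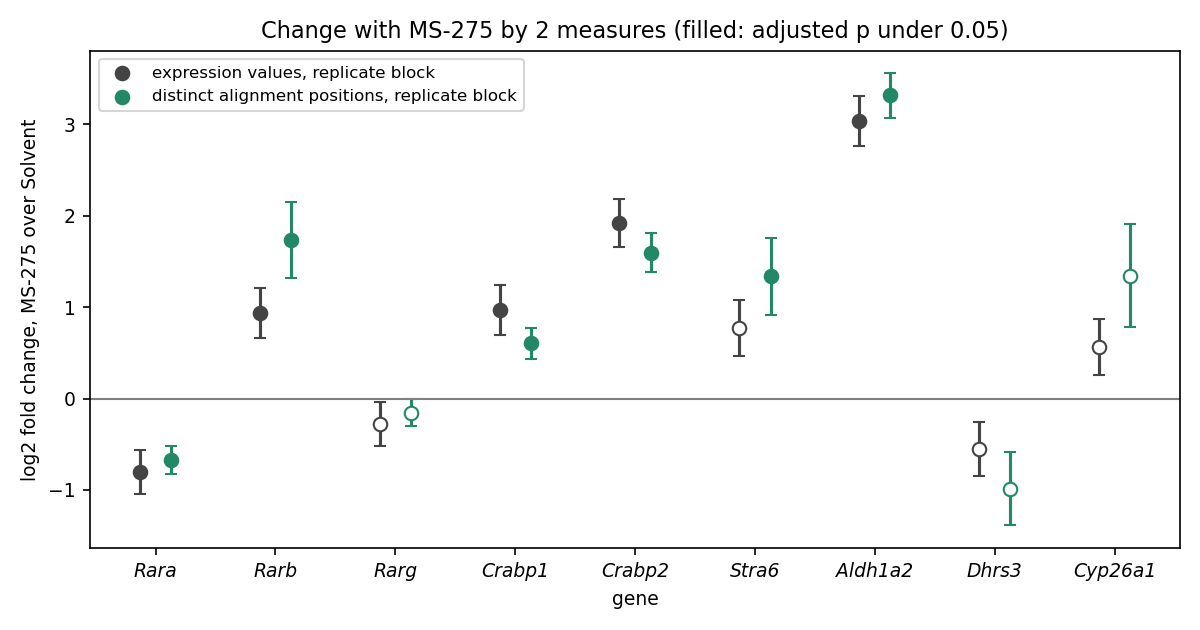
Log2 fold change of MS-275 over Solvent for the 9 retinoid genes in the fits with the replicate block, from expression values (grey) and from distinct alignment positions (green), with bars of 1 standard error and filled points where the adjusted p was under 0.05. Aldh1a2 stands highest by both measures, at 3.03 and 3.31, and Stra6 is filled by positions only.

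Among the enzymes, the retinoic acid synthesis gene Aldh1a2 was higher by about an order of magnitude. The retinal reductase gene Dhrs3 was lower in each pair without passing. The degradation gene Cyp26a1 did not pass either, and its groups overlapped by values but not by positions. Aldh1a2 (Entrez 19378, chromosome 9 of mm9 from 71063596 to 71144050) had values of 0.0167 and 0.0103 in Solvent and of 0.173 and 0.120 in MS-275. The lowest MS-275 value was several times the highest Solvent value, and the pairs gave nearly the same fold, 10.3 and 11.7. The log2 fold change was 3.03 (standard error 0.546, adjusted p = 0.0581 from limma), and with the block the standard error was 0.270 (adjusted p = 2.38e-06). The exons held 44 and 37 distinct positions in Solvent and 340 and 440 in MS-275, a log2 fold change of 3.31. This passed with the block (adjusted p = 8.86e-08 from limma-voom) and without it (adjusted p = 0.00402).

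The higher Aldh1a2 signal ran along the whole gene. All 14 exon blocks held more positions in each MS-275 library than in either Solvent library. The block with the annotated start held 1 and 0 positions in Solvent and 11 and 16 in MS-275, and the last block held 18 and 17 in Solvent and 143 and 165 in MS-275. The introns held 5 and 6 positions in Solvent and 73 and 77 in MS-275, so positions in the introns were more numerous too. The share of the gene's positions on exons was 89.8% and 86.0% in Solvent and 82.3% and 85.1% in MS-275.

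Dhrs3 (Entrez 20148, chromosome 4 of mm9 from 144482730 to 144518112) had values of 0.0189 and 0.00873 in Solvent and of 0.0127 and 0.00364 in MS-275. The MS-275 library was the lower one of each pair, but the groups overlapped because replicate 1 was higher than replicate 2 in both. On the log2 scale the change was -0.55 (standard error 0.574, adjusted p = 0.743 from limma; standard error 0.294, adjusted p = 0.178 with the block). The exons held 37 and 30 distinct positions in Solvent and 12 and 20 in MS-275, without overlap. By positions the log2 fold change was -0.99 (adjusted p = 0.0562 from limma-voom with the block). With quantile normalization and the block the change was -1.08 and passed (adjusted p = 0.0183 from limma).

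Cyp26a1, the enzyme gene that retinoic acid itself induces (Entrez 13082, chromosome 19 of mm9 from 37772298 to 37776018), had values of 0.00918 and 0.00120 in Solvent and of 0.00874 and 0.00898 in MS-275. A single library stood apart, Solvent replicate 2 with the low value, and the other 3 lay within 0.00874 to 0.00918. The log2 fold change was 0.56 (standard error 0.470, adjusted p = 0.649 from limma; standard error 0.309, adjusted p = 0.190 with the block), and without Solvent replicate 2 it was -0.033. The exons held 5 and 16 distinct positions in Solvent and 31 and 20 in MS-275, without overlap. The difference did not pass (log2 fold change 1.34, adjusted p = 0.0672 from limma-voom with the block). With the exchange of numbers described above, the Solvent library with 5 positions is the one with the low value. At these counts a change of Cyp26a1 was neither shown nor excluded.

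**Figure D3:**
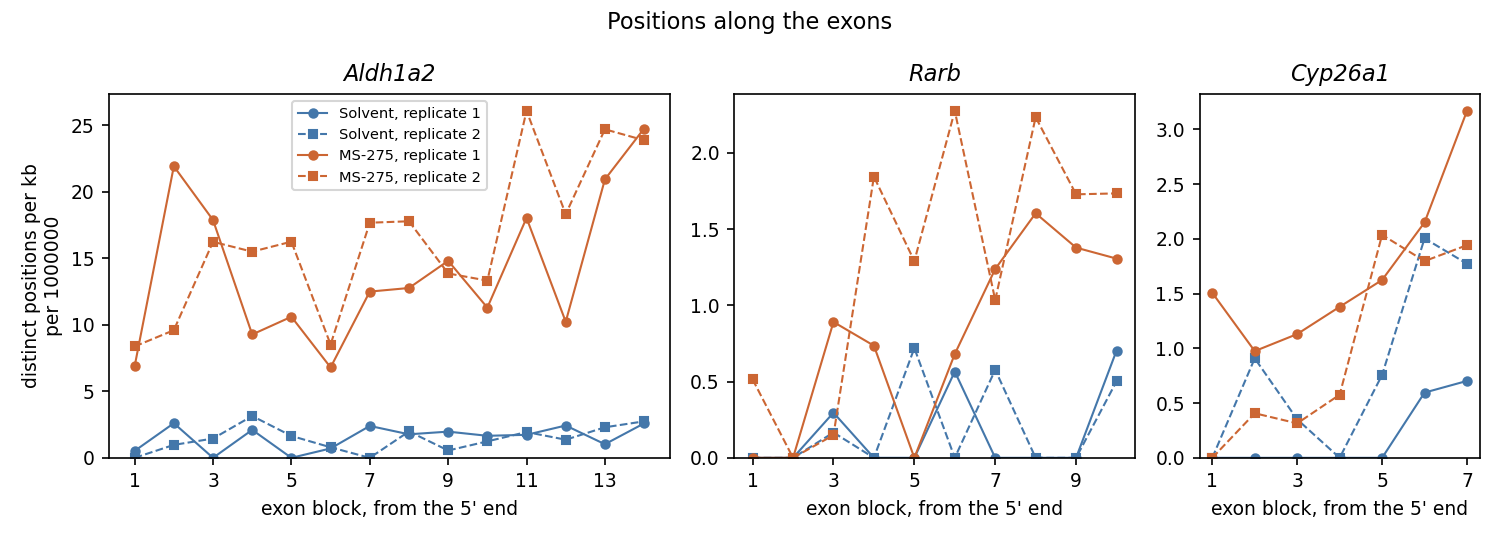
Distinct alignment positions per kb of exon and per 1000000 positions in each exon block of Aldh1a2, Rarb and Cyp26a1, numbered from the 5′ end, for the 4 libraries. The MS-275 lines of Aldh1a2 lie above both Solvent lines in all 14 blocks, while those of Rarb and Cyp26a1 rest on few positions and cross the Solvent lines.

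Synthesis was also set against reduction and degradation within each library. The ratio of the Aldh1a2 value to the Dhrs3 value was 0.881 and 1.17 in Solvent and 13.6 and 33.0 in MS-275. The ratio of the Aldh1a2 value to the Cyp26a1 value was 1.82 and 8.54 in Solvent and 19.7 and 13.4 in MS-275. Neither ratio overlapped between the groups, but the Aldh1a2 value alone was 10.3-fold and 11.7-fold higher without overlap. The ratios mostly restate that rise and are no separate evidence on Dhrs3 or Cyp26a1. The spread of the second ratio in Solvent came with the low Cyp26a1 value of replicate 2. These are RNA values only, and no enzyme activity or retinoic acid level was measured.

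Levels of the 9 genes were compared with each other by distinct positions per kb of exon and per 1000000 positions, since a comparison between genes needs a scale per length. In Solvent, Crabp1 had the highest level, at 29.1 ± 1.76 (SD, n = 2), followed by Rarg at 15.6 ± 1.64 and Rara at 10.6 ± 1.09. Crabp2 followed at 6.58 ± 0.533 and Aldh1a2 at 1.72 ± 0.0714. The ranges of these 5 did not overlap each other. Dhrs3 (1.10 ± 0.0739), Cyp26a1 (0.590 ± 0.470), Rarb (0.349 ± 0.0545) and Stra6 (0.253 ± 0.0847) were the lowest, and the last 3 overlapped.

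In MS-275 the order per length was different in the middle. Crabp1 was again highest at 43.8 ± 3.61 (SD, n = 2), and Crabp2 (19.7 ± 2.23) and Aldh1a2 (17.1 ± 0.949) stood above Rarg (13.9 ± 1.95) and Rara (6.59 ± 0.401). The lowest Crabp2 library, at 18.2, lay just above the highest Aldh1a2 library, at 17.8, a gap smaller than the spread of either gene. Distinct positions count repeated alignments once, which can understate genes with many repeats. In MS-275 replicate 1 of the alignments 78.4% repeated a position on Crabp1, 61.2% on Crabp2 and 39.2% on Aldh1a2. Whether these repeats were copies of the same fragment was not tested. Cyp26a1 (1.48 ± 0.625), Rarb (1.18 ± 0.215) and Stra6 (0.645 ± 0.221) followed, and Dhrs3 was lowest at 0.538 ± 0.125. The libraries of Cyp26a1 and Rarb overlapped each other, as did those of Stra6 and Dhrs3. Aldh1a2 thus moved from the fifth place to the third in both libraries, and Dhrs3 from the sixth to the ninth.

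**Figure D4:**
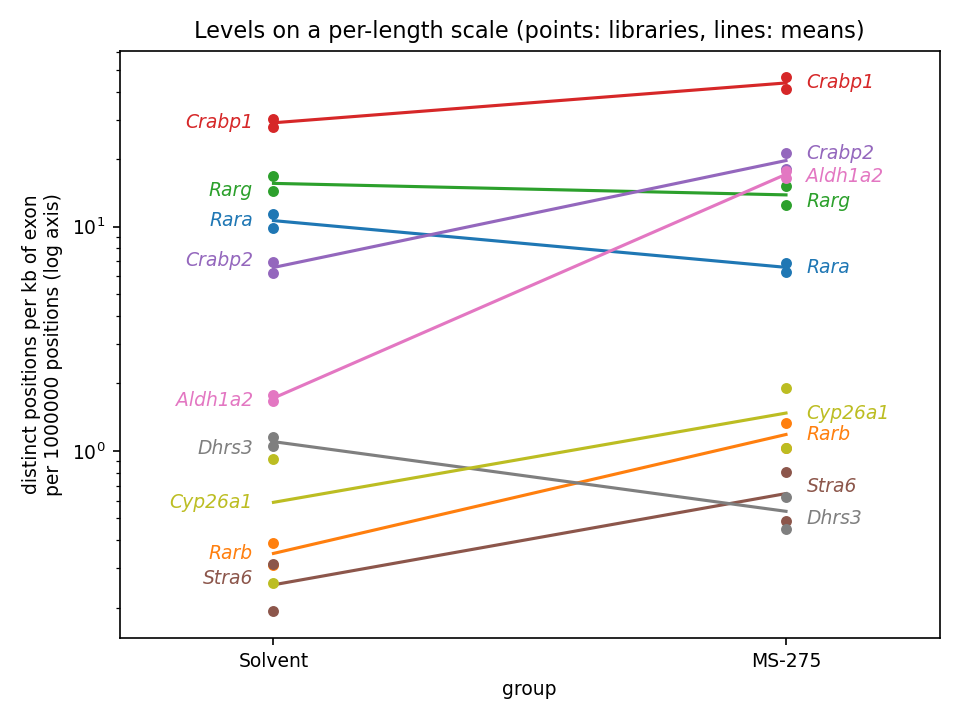
Level of each retinoid gene in distinct positions per kb of exon and per 1000000 positions (log axis) in the Solvent and MS-275 groups, with a point for each library and a line between the means of 2 libraries. Aldh1a2 crosses Rara and Rarg on the way up, from 1.72 to 17.1, and Dhrs3 crosses Stra6, Rarb and Cyp26a1 on the way down, from 1.10 to 0.538.

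Of 40 other genes of retinoid transport, metabolism and receptor function, 37 were listed and 32 passed the filter. With the replicate block 12 rose, 2 fell and 18 did not pass, with a median log2 fold change of 0.41, beside 21.0% higher and 6.46% lower over all genes. Without the block 0 passed in either direction. After median-ratio scaling with the block 9 rose and 5 fell, where 16.6% of all genes were higher and 14.1% lower. Quantile normalization with the block gave 7 that rose and 4 that fell, where 13.9% of all genes were higher and 13.2% lower. Those that rose most were Prame and Aldh1a1. Prame, a repressor partner of the retinoic acid receptors, had values of 0.0009 and 0.00188 in Solvent and of 0.0598 and 0.0439 in MS-275 (log2 fold change 3.14, adjusted p = 6.50e-06 from limma with the block). Aldh1a1, another retinaldehyde dehydrogenase, had 0 and 0.00042 in Solvent and 0.0365 and 0.0325 in MS-275 (log2 fold change 2.92, adjusted p = 6.24e-06), a change whose size depends on the pseudocount.

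The genes of this list that fell were Nsd1 and Ncor1. Nsd1, a histone methyltransferase that binds nuclear receptors, had values of 0.429 and 0.336 in Solvent and of 0.210 and 0.0846 in MS-275 (log2 fold change -1.47, adjusted p = 0.000450 from limma with the block). Ncor1, a corepressor of the unliganded receptors that works with a histone deacetylase, had 0.409 and 0.286 in Solvent and 0.310 and 0.117 in MS-275 (log2 fold change -0.82, adjusted p = 0.0209). The Ncor1 values overlapped between the groups.

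A few close relatives of the 9 genes were picked after their values were seen. Aldh1a3, the remaining retinaldehyde dehydrogenase gene of the Aldh1a family, had 0.00225 and 0.00150 in Solvent and 0.0226 and 0.0102 in MS-275 (log2 fold change 1.58, adjusted p = 0.000809 from limma with the block). Of the retinoid X receptors, the partners of the receptors on DNA, Rxra and Rxrg passed as higher with the block (0.97 and 1.60, adjusted p = 0.0147 and 0.00180) and Rxrb did not pass (-0.37, adjusted p = 0.229). Cyp26b1, the nearest relative of Cyp26a1 on the list, did not pass by values (0.59, adjusted p = 0.124 from limma with the block). By distinct positions it passed as higher (1.03, adjusted p = 0.0408 from limma-voom with the block).

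Of 25 genes known to respond to retinoic acid in ESC or embryos, all were listed and 23 passed the filter, and with the block 11 rose, 1 fell and 11 did not pass, with a median of 0.65, beside 21.0% higher and 6.46% lower over all genes. Without the block 0 passed in either direction. After quantile normalization with the block 7 rose and 2 fell, where 13.9% of all genes were higher and 13.2% lower. Cdx1, a homeobox gene of the posterior body axis, had 0.0214 and 0.00963 in Solvent and 0.184 and 0.120 in MS-275 (log2 fold change 2.96, adjusted p = 2.68e-06 from limma with the block). Hoxb1, a Hox gene of the hindbrain, had 0 and 0.00062 in Solvent and 0.0137 and 0.0431 in MS-275 (2.50, adjusted p = 4.24e-05).

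**Figure D5:**
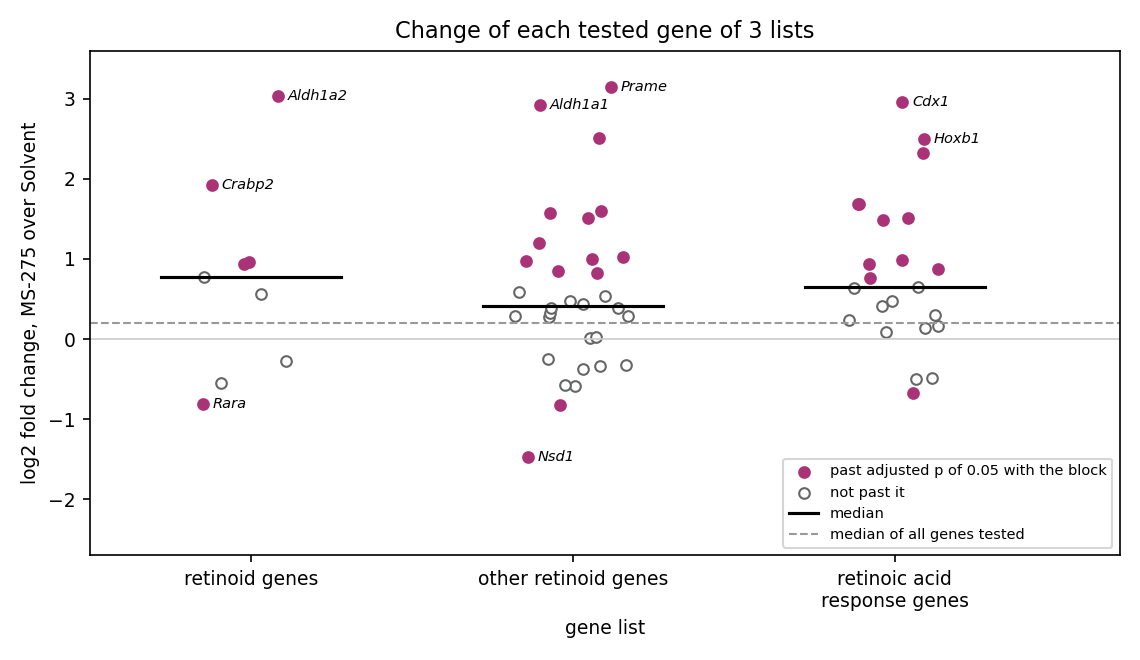
Log2 fold change of MS-275 over Solvent for the tested genes of 3 lists, the 9 retinoid genes, 32 other retinoid genes and 23 retinoic acid response genes, with filled points past the adjusted p with the replicate block, a bar at each list's median and a dashed line at the median of all genes tested. The medians of 0.77, 0.41 and 0.65 lie above the 0.20 of all genes, and each list holds points on both sides of 0.

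Markers of the cell types these cultures could hold were read beside the retinoid genes. The 8 stem cell markers were all at 0.214 or more in every library, and with the block 0 rose and 2 fell (median log2 fold change -0.47). Their summed value was 5.08 and 22.2 in Solvent replicates 1 and 2 and 4.26 and 13.4 in MS-275. This sum differed more between the duplicates of a group than between the groups. The counts that follow are with the block, where 21.0% of all genes were higher and 6.46% lower, and in the values without it 0 markers of any list passed. Of 10 fibroblast markers, which feeder cells would carry, 5 rose and 0 fell. Quantile normalization gave 3 and 2, where 13.9% of all genes were higher and 13.2% lower. Median-ratio scaling gave 4 and 1, where 16.6% of all genes were higher and 14.1% lower. Positions also gave 4 and 1, where 28.5% of all genes were higher and 13.1% lower. The summed value of the fibroblast markers was 0.390 and 0.549 in Solvent and 0.660 and 0.937 in MS-275. Of 8 endoderm markers 3 rose and 0 fell (0.125 and 0.0398 against 0.232 and 0.0834), of 6 mesoderm markers 2 rose and 0 fell (0.0463 and 0.0233 against 0.128 and 0.0670), and of 6 neural markers 3 rose and 1 fell (0.302 and 0.254 against 0.434 and 0.380). None of these markers was below 0.001 in an MS-275 library. Their part in the changes of Aldh1a2, Crabp1, Crabp2 and Rarb was not tested. In these bulk samples more cells of a type and more RNA per cell cannot be told apart.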

How the data were processed

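RNA-seq of 2 Solvent and 2 MS-275 libraries was analysed, grouped by their deposited titles. Reads had been mapped to mm9 by the authors, who deposited a normalized expression signal per gene made with Genomatix, whose aligner, version and formula are not given in the sources used here, and the alignments, each 35 bases long. The paper names DMSO for its differentiation assay, while control alignments carry the name ETOH (ethanol). Which solvent the control cells received was not resolved.

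The signal values were fitted with R 4.3.3 and limma 3.58.1 (lmFit, eBayes with a trend) on log2(value + 0.005). Python 3.11.15, numpy 2.4.6, pandas 2.3.3 and matplotlib 3.10.9 were used otherwise. The replicate numbers were taken as pairs from the table headers, and deviations from the group means correlated at r = 0.764 over 20336 genes, which are not independent. Distinct positions were assigned by the middle of the alignment to exons of GENCODE M1 on mm9, and limma-voom was run on the 17923 genes that reached 10 positions in 2 or more libraries. Strand was not used. Replicate 1 is called old in the tables and new in the alignments, and values matched the alignments of the other replicate number. Which of them is misnumbered is not given in the sources used here. Promoter windows came from RefSeq (GRCm38.p6). The authors' tables of ratios between conditions were not used. The steps were tested on simulated data.

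The 9 genes and all lists were chosen with earlier results of these data known. The 9 genes are all named. Of the other retinoid genes and the response genes, those named are the 2 that changed most in each direction past the threshold with the block. Some close relatives are named besides, and the marker genes are not named. The gene of the response list that fell is not reported here. Of the 40 other retinoid genes Fabp5, Rdh5 and Rdh16 were not listed. Alternatives were other pseudocounts, filters and scalings, no trend, the block, leaving out each library, and other floors and folds.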

Additional observations from a re-analysis of the deposited data

How the results depend on the processing

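The replicate block, which compares MS-275 with Solvent within the pairs, moved the counts most. Genes higher and lower over the whole table were 1 and 0 without it and 4277 and 1314 with it, and retinoid genes 0 and 0 without it and 4 and 1 with it. With the block, pseudocounts of 0.001 and 0.02 gave 4216 and 3790 genes higher and 1220 and 1158 lower, with 4 retinoid genes higher and 1 lower under each. A mean value of at least 0.01 with the block gave 2751 higher and 1091 lower, with 3 retinoid genes higher and 1 lower of the 6 tested, since Rarb, Stra6 and Cyp26a1 were below that mean. Quantile normalization with the block gave 2828 higher and 2681 lower (3 and 2 retinoid genes), and median-ratio scaling with the block 3379 and 2864 (4 and 1). Calls with the block were 76.5% higher as deposited, 51.3% after quantile normalization and 54.1% after median-ratio scaling. Distinct positions gave 2604 higher and 882 lower (3 and 0 retinoid genes), and with the block 5114 and 2350 (5 and 1).

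Without the block, a mean value of at least 0.01 gave 466 higher and 65 lower, with 2 retinoid genes higher (Crabp2 and Aldh1a2) and 0 lower. The pseudocounts, no filter, both scalings and no trend gave 0 and 0. Without 1 library in turn, 72 to 414 genes were higher and 12 to 135 lower, and 0 to 2 retinoid genes higher and 0 lower. Such a fit leaves 1 library in a group, which is assumed to vary like the other group.

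By folds of at least 2 in both pairs, 3 retinoid genes were higher (Aldh1a2, Crabp2 and Rarb), where 11.5% of all genes were, and 0 lower, where 2.04% were. A minimum of 3-fold left 1, Aldh1a2. Pair 2 of the values alone gave 5 higher and 2 lower, where 19.9% and 5.95% of all genes were. Leaving out 1 library, the log2 fold change of Rarg ranged from -0.66 to 0.10, with the sign turned without MS-275 replicate 2, and that of Cyp26a1 from -0.033 to 1.16, turned without Solvent replicate 2. The cause of these moves was not tested. The depth limits Rarb, Stra6, Dhrs3 and Cyp26a1, with 5 to 51 distinct positions a library on their exons.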

Other observations

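The repeat spaced by 5 bases that Rarb and Cyp26a1 carry was in windows of 31 genes in all, and 10 of these passed the filter on low values. This group was formed after the data were seen. Of the 8 that are not among the retinoid genes, 2 rose with the replicate block and 0 fell, where 21.0% of all genes rose and 6.46% fell, with a median log2 fold change of 0.44. Without the block none of the 8 passed, at adjusted p of 0.0713 or more from limma. The 2 were Prokr2, a prokineticin receptor (0.00185 and 0.00076 in Solvent, 0.0304 and 0.0151 in MS-275, log2 fold change 2.09, adjusted p = 8.90e-05 from limma with the block), and Blvrb, a biliverdin reductase (0.179 and 0.137 in Solvent, 0.253 and 0.531 in MS-275, 1.20, adjusted p = 0.00515).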
